A study of Mus musculus with 48 samples.

Results

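The genes described here are the liver X receptors (LXRs), genes known as their targets in sterol export, and close partners of that route: Nr1h3, Nr1h2, Abca1, Abcg1, Abcg5, Abcg8, Mylip, Rnf145, Gramd1b and Soat2. They were chosen by name for their known roles, with earlier results of these data known, and make up 10 of the 29221 genes with read counts. All 10 passed the filter on low counts in every comparison. Whole-liver RNA was sequenced from 48 mice, 1 library per mouse, in 10 groups. Every mouse carried floxed Pparg, the gene of the lipid-regulating nuclear receptor PPARγ. After 16 weeks on diet the mice received either AAV8-TBG-Cre, in which the hepatocyte promoter TBG drives Cre (labelled knockout), or AAV8-TBG-null (control). Males (4 groups of 6) were fed a high fat (HF) diet for 34 weeks, or HF for 18 weeks and then, for 16 weeks, a diet rich in fat that also supplied cholesterol and fructose (HFCF). Females (6 groups of 4) had these same regimens or a low fat (LF) diet for 34 weeks, and no male was fed LF. The labels call the LF livers healthy, the HF livers steatotic and the HFCF livers steatohepatitic. The ages of the mice are not given in the sources used here.

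LXRα (Nr1h3) and LXRβ (Nr1h2) are nuclear receptors that bind oxysterols, form dimers with RXR and raise transcription of genes that move cholesterol out of cells. In hepatocytes this route ends in bile, through the paired transporters ABCG5 and ABCG8, while ABCA1 loads cholesterol onto apolipoprotein A-I. In macrophages ABCA1 and ABCG1 are the main LXR-driven pumps. The SREBP2 pathway works in the opposite situation, raising sterol synthesis and uptake when cell sterol is low.

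The promoters of Abca1 and of the Abcg5 and Abcg8 pair are shown because the results turn on these genes and because the latter share 1 short stretch of DNA. Both are RefSeq windows on GRCm38.p6, from 250 bases before to 50 bases after the start of transcription, printed 5′ to 3′. The Abca1 window is chr4:53159846-53160145, minus strand, and its capitals mark a match to a relaxed LXR-type direct repeat, searched on both strands as NGGTNANNNNNGGTCA. The second window, chr17:84682871-84683170, is that of Abcg8, plus strand. Its capitals run from the Abcg5 start at 84683011 to the Abcg8 start at 84683121, 110 bases apart. From these starts the genes are transcribed away from each other. RefSeq also lists an Abcg8 start at 84676302, inside Abcg5.
Abca1: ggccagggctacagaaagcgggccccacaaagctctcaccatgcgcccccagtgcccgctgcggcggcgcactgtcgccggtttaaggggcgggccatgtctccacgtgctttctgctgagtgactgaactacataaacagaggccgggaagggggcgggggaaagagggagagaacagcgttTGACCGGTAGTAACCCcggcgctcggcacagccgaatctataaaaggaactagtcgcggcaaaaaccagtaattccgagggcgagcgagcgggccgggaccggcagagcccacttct
Abcg8: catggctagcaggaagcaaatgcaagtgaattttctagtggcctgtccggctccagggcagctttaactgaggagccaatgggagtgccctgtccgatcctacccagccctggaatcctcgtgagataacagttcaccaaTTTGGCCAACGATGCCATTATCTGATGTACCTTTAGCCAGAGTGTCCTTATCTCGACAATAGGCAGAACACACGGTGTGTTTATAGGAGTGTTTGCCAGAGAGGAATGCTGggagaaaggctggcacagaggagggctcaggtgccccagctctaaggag

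The match in Abca1 lies on the minus strand of the printed sequence, with its first base 67 bases before the start, and the relaxed pattern occurs in 0.207% of 32851 promoter windows. The stricter pattern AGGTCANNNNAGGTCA, whose every match is also a match of the relaxed pattern, occurs in 0.0152% of windows and in no window of these genes. A GATA box, searched on both strands as GATAAG, occurs in 7.44% of windows. It lies once between the Abcg5 and Abcg8 starts, reading CTTATC in the capitals above. The table of RefSeq promoters used here held 11 windows for 7 of the 10 genes. Abcg1, Gramd1b and Soat2 were not matched. These matches describe letters, not bound sites.

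Pparg was read first, as a check of the labels. It was not lower in any labelled-knockout group: the means, as read counts scaled to a common library size (CPM), were 41.2 against 34.3 in HF males, 55.9 against 32.0 in HFCF males, 15.6 against 10.5 in LF females, 28.8 against 18.6 in HF females and 46.0 against 23.7 in HFCF females. It was called higher in HFCF males (log2 difference 0.81, edgeR quasi-likelihood adjusted p = 0.000805) and in HFCF females (0.97, adjusted p = 0.0422). Counts cover the whole gene and do not separate exons inside and outside the deleted part. The term labelled knockout is therefore used throughout. Libraries held 15338239 to 22072884 reads on genes. Summed hepatocyte markers stood at 36672 to 117411 CPM in single libraries, with none of the 8 markers at 0. The 14 macrophage markers summed to 427 to 1899 CPM.

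Per kilobase of exon (RPKM), the genes fell into 3 tiers over all 48 livers. Abcg5 (mean 49.97 RPKM), Nr1h3 (44.6), Abcg8 (43.4) and Soat2 (37.1) formed the top tier, and the ranges of their 10 group means overlapped. Abca1 followed at 24.1 RPKM, its highest group mean of 30.3 lying under the lowest of Soat2, 32.7. Nr1h2 stood at 16.8 RPKM, with group means that reached 19.0 and so just overlapped those of Abca1, which began at 18.7. Mylip (6.5), Rnf145 (5.43) and Abcg1 (4.37) formed a lower tier with overlapping group means. Gramd1b was lowest at 0.984 RPKM. The highest group mean exceeded the lowest 4.18-fold for Gramd1b, 3.56-fold for Abcg1 and 2.06-fold for Abcg5, 1.27-fold for Nr1h2, and 1.47-fold to 1.997-fold for the other members. Coordinates given here are those of the deposited tables (GRCm38). Other genes that overlap Nr1h3, Abcg1 or Gramd1b had 7 reads or fewer per library. The values of each liver are drawn in the plot of CPM by group.

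**Figure D1:**
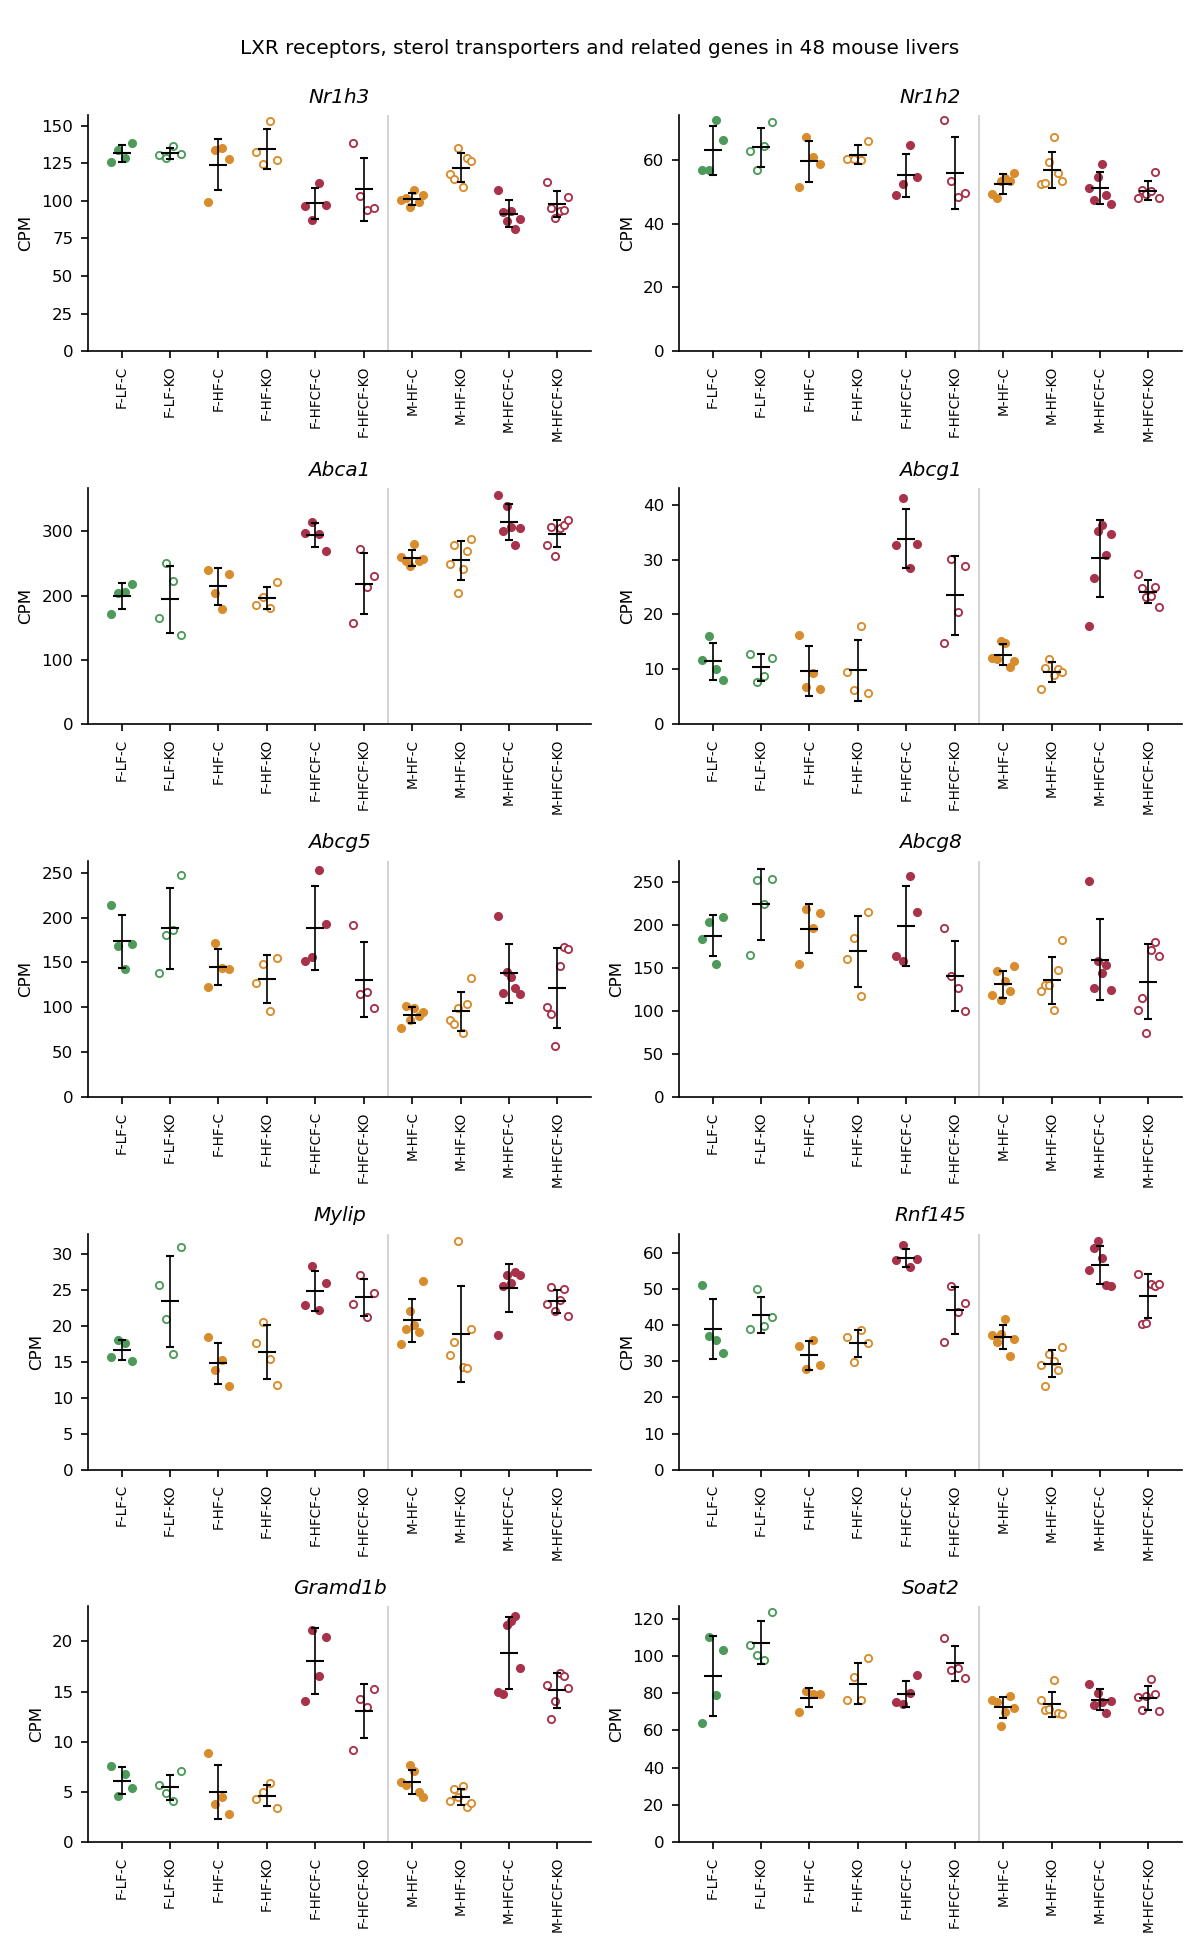
CPM of each of the 10 genes in each of 48 livers (y axes, linear from 0), by group (x axis; F female, M male, C control with filled points, KO labelled knockout with open points; green LF, orange HF, red HFCF), with bars for the mean and SD. Gramd1b and Abcg1 are high in the 4 HFCF groups, whereas the highest and lowest group means differ 1.27-fold for Nr1h2 and 1.48-fold for Soat2.

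The question put to the diets was how the HFCF diet, which adds cholesterol and fructose, compares with HF alone. This was asked in 4 arms that share no library. On HFCF the efflux pump Abcg1 and the sterol carrier Gramd1b rose in all 4, and the ubiquitin ligases Rnf145 and Mylip and the pump Abca1 rose in 3 each, whereas neither receptor rose in any. Of the 10 genes, 6 were called higher and 0 lower in male controls, where 22.3% of all genes tested were called, 13% higher and 9.31% lower (edgeR quasi-likelihood test, Benjamini-Hochberg adjusted p under 0.05 over all genes). Among male labelled knockouts 4 were called higher and 1 lower, against 41.7% of all genes (21.6% higher, 20% lower). In female controls 5 were called higher and 0 lower, against 30.8% (16.9% higher, 13.8% lower). In female labelled knockouts 3 were called higher and 0 lower, against 14.5% (8.44% higher, 6.01% lower). The median log2 change of the 10 genes was 0.31, 0.28, 0.43 and 0.17 in these arms, beside 0.01, -0.02, -0.02 and -0.01 over all genes tested. The 5 of 10 called in male labelled knockouts are near the background share.

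The receptors themselves were flat or lower on HFCF. Nr1h3 (LXRα; ENSMUSG00000002108, chromosome 2, 91184061 to 91202834, minus strand) had its lowest, median and highest values at 81.0, 90.3 and 107 CPM in HFCF male controls and at 95.8, 101 and 107 CPM in HF male controls, which overlapped (log2 difference -0.12, SE 0.06, adjusted p = 0.151; -0.17 and 0.0162 without HFCF replicate 1). In male labelled knockouts it fell from 109, 122 and 135 CPM on HF to 88.6, 94.5 and 113 CPM on HFCF, a log2 change of -0.31 (SE 0.07, adjusted p = 0.00224), and only the highest HFCF liver reached into the HF range. Female controls had 96.4, 87.0, 112 and 97.4 CPM on HFCF and 99.3, 134, 135 and 128 CPM on HF, a log2 difference of -0.32 (SE 0.12) with an adjusted p of 0.0576. That difference passed under DESeq2 (adjusted p = 0.0379) and in the fit of all female groups (0.0343), and also without HF replicate 1 (0.00628) or HFCF replicate 3 (0.0318). The female labelled knockouts gave the same size, -0.32 (SE 0.14, adjusted p = 0.145). There, HFCF replicate 1 stood at 139 CPM and the other 3 HFCF livers between 93.9 and 103 CPM. Nr1h2 (LXRβ; ENSMUSG00000060601, chromosome 7, 44549616 to 44553951, minus strand) passed in no arm, with log2 differences from -0.16 to -0.01. Without HFCF replicate 5 it was lower on HFCF in male labelled knockouts (-0.19, adjusted p = 0.0407).

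Abca1 (ENSMUSG00000015243, chromosome 4, 53030787 to 53159895, minus strand), which exports cholesterol and phospholipid to apolipoprotein A-I, rose in 3 arms by less than Abcg1 and Gramd1b. In male controls its lowest, median and highest values were 278, 305 and 356 CPM on HFCF against 246, 255 and 281 CPM on HF (log2 change 0.31, SE 0.06, adjusted p = 0.00429), with a small overlap at 1 liver of each diet. For male labelled knockouts the values of 262, 306 and 317 CPM on HFCF overlapped the 204, 259 and 288 CPM on HF more widely (log2 change 0.23, SE 0.08, adjusted p = 0.0300), and the call was lost without HF replicate 1, 3 or 4 or HFCF replicate 2, 4 or 5. In female controls Abca1 was 297, 315, 295 and 269 CPM on HFCF and 239, 204, 179 and 234 CPM on HF, with no overlap (log2 change 0.47, SE 0.11, adjusted p = 0.0128). In female labelled knockouts the call was not made: HFCF livers had 157, 273, 214 and 230 CPM and HF livers 185, 197, 181 and 221 CPM (log2 difference 0.17, SE 0.16, adjusted p = 0.541). That difference was 0.31 (adjusted p = 0.0532) without HFCF replicate 1 and 0.04 (adjusted p = 0.904) without HFCF replicate 2.

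Abcg1 (ENSMUSG00000024030, chromosome 17, 31057698 to 31115777, plus strand), a sterol pump best known from macrophages, showed the second largest diet difference of these genes in each arm, after Gramd1b. In male controls it had a lowest, median and highest value of 17.8, 32.7 and 36.3 CPM on HFCF against 10.5, 12 and 15.2 CPM on HF, a 2.39-fold ratio of means (log2 change 1.29, SE 0.16, adjusted p = 0.000292). In male labelled knockouts the values were 21.3, 24.1 and 27.3 CPM against 6.37, 9.77 and 11.8 CPM (log2 change 1.36, SE 0.12, adjusted p = 1.09e-06). No male HFCF liver overlapped the HF livers of its arm. Female controls measured 32.7, 41.2, 28.4 and 32.8 CPM on HFCF and 16.2, 6.69, 9.35 and 6.5 CPM on HF (log2 change 1.80, SE 0.27, adjusted p = 0.00546). Female labelled knockouts measured 14.8, 30.1, 20.4 and 28.8 CPM on HFCF and 9.47, 6.19, 17.8 and 5.77 CPM on HF, where the lowest HFCF liver lay under the highest HF liver (log2 change 1.25, SE 0.36, adjusted p = 0.0442). The last call held in 2 of 8 fits that left out 1 library, those without HF replicate 3 or HFCF replicate 1.

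Gramd1b (ENSMUSG00000040111, chromosome 9, 40293233 to 40531383, minus strand) encodes Aster-B, a protein that carries cholesterol from the plasma membrane to the endoplasmic reticulum. It was the gene with the largest diet difference in every arm, from a low level. In male controls the lowest, median and highest values were 14.8, 19.5 and 22.5 CPM on HFCF and 4.56, 5.84 and 7.70 CPM on HF (log2 change 1.68, SE 0.15, adjusted p = 3.33e-05). In male labelled knockouts they were 12.2, 15.5 and 16.8 CPM against 3.56, 4.31 and 5.62 CPM (log2 change 1.76, SE 0.12, adjusted p = 3.4e-07). The female controls had 14.1, 21.1, 16.5 and 20.4 CPM on HFCF and 8.89, 3.78, 4.55 and 2.82 CPM on HF (log2 change 1.85, SE 0.32, adjusted p = 0.00607). The female labelled knockouts had 9.20, 14.2, 13.5 and 15.3 CPM and 4.36, 5.0, 5.88 and 3.38 CPM (log2 change 1.49, SE 0.22, adjusted p = 0.00389). In all 4 arms the diets did not overlap, and the call held in every fit that left out 1 library.

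Rnf145 (ENSMUSG00000019189, chromosome 11, 44518964 to 44565520, plus strand) encodes an LXR-induced ubiquitin ligase that restrains SREBP2 activation and sterol synthesis. In male controls it rose from a lowest, median and highest value of 31.4, 36.8 and 41.8 CPM on HF to 50.7, 56.9 and 63.4 CPM on HFCF (log2 change 0.66, SE 0.07, adjusted p = 0.000206). The male labelled knockouts rose from 23.2, 29.5 and 34.0 CPM to 40.3, 51.1 and 54.3 CPM (log2 change 0.73, SE 0.10, adjusted p = 3.6e-05). Female controls had 58.0, 62.1, 56.2 and 58.3 CPM on HFCF against 34.2, 27.8, 35.9 and 28.9 CPM on HF (log2 change 0.90, SE 0.10, adjusted p = 0.00446). These 3 arms had no overlap between diets. Female labelled knockouts had 35.4, 51.0, 43.7 and 46.2 CPM on HFCF and 36.8, 29.9, 38.5 and 35 CPM on HF, which overlapped through HFCF replicate 1 (log2 difference 0.34, SE 0.13, adjusted p = 0.118; 0.0113 without that library).

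Mylip (ENSMUSG00000038175, chromosome 13, 45389742 to 45412022, plus strand) encodes IDOL, a ubiquitin ligase that lowers the uptake of cholesterol by cells. Its log2 change was largest in female controls, at 22.9, 28.3, 22.2 and 25.9 CPM on HFCF against 18.4, 13.9, 15.2 and 11.6 CPM on HF, with no overlap (log2 change 0.76, SE 0.15, adjusted p = 0.00792). Female labelled knockouts also separated, at 23.0, 27.1, 21.1 and 24.5 CPM against 17.6, 20.5, 15.4 and 11.7 CPM (log2 change 0.56, SE 0.17, adjusted p = 0.0489). In male controls the lowest, median and highest values of 18.7, 26.4 and 27.4 CPM on HFCF overlapped 17.5, 19.8 and 26.2 CPM on HF (log2 change 0.32, SE 0.11, adjusted p = 0.0492). Both of these last calls sat at the threshold. The female call held in 2 of 8 fits that left out 1 library, those without HF replicate 2 or HFCF replicate 1, and the male call in 2 of 12, those without HF replicate 6 or HFCF replicate 1. In male labelled knockouts the log2 difference was 0.33 (SE 0.16, adjusted p = 0.119), and HF replicate 3, at 31.8 CPM, stood far above the other HF livers, the next at 19.5 CPM. Without it the difference was 0.54 with an adjusted p of 0.000485.

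The transporter pair of the bile canaliculus moved less than Abcg1 and Gramd1b. Abcg5 (ENSMUSG00000040505, chromosome 17, 84658234 to 84683011, minus strand) and Abcg8 (ENSMUSG00000024254, chromosome 17, 84676302 to 84700333, plus strand) overlap each other. Abcg5 rose in male controls, from a lowest, median and highest value of 77.2, 92.5 and 101 CPM on HF to 114, 127 and 202 CPM on HFCF (log2 change 0.61, SE 0.12, adjusted p = 0.00335), with no overlap between diets. Abcg8 in the same livers went from 112, 129 and 152 CPM to 124, 149 and 251 CPM and did not pass (log2 difference 0.31, SE 0.14, adjusted p = 0.136). In the other 3 arms neither gene was called. Their log2 differences were 0.36, 0.39 and -0.01 for Abcg5 and -0.00, 0.03 and -0.26 for Abcg8, in male labelled knockouts, female controls and female labelled knockouts. Without HFCF replicate 3, Abcg5 was called in male labelled knockouts (0.51, adjusted p = 0.0325). Soat2 (ENSMUSG00000023045, chromosome 15, 102150526 to 102163469, plus strand), which encodes the hepatocyte enzyme that esterifies cholesterol (ACAT2), passed in no arm, with log2 differences of 0.05 to 0.18.

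**Figure D2:**
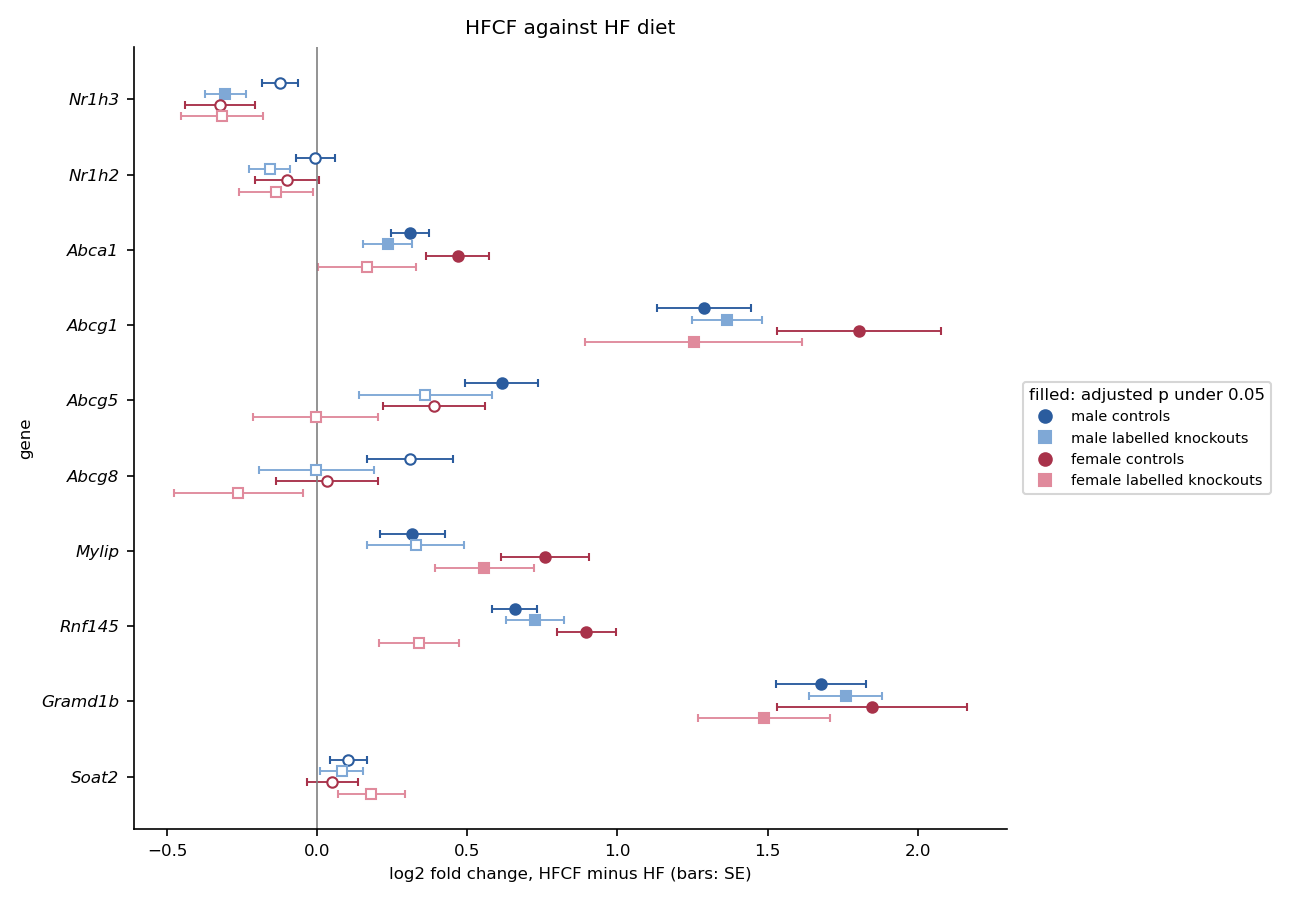
Log2 fold change of HFCF over HF (x axis, bars SE) for each gene (y axis) in male controls, male labelled knockouts, female controls and female labelled knockouts, filled where the adjusted p is under 0.05. Gramd1b lies between 1.49 and 1.85 and Abcg1 between 1.25 and 1.80, while Abcg8 and Soat2 have no filled point.

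The balance of the pair was read as the ratio of Abcg5 RPKM to Abcg8 RPKM in each liver, a measure chosen after the values were seen. In HF livers the ratio was near 1, and in HFCF livers it was higher in every arm without overlap. It measured 1.21 ± 0.0838 (SD, n = 6) on HFCF and 0.970 ± 0.0743 (n = 6) on HF in male controls, an exact permutation p of 0.00216 (2-sided, adjusted over 11 comparisons 0.0119). The male labelled knockouts had 1.24 ± 0.141 and 0.971 ± 0.0609 (n = 6 each, exact p of 0.00216, adjusted 0.0119). Groups of 6 cannot give a smaller value. In female controls it was 1.31 ± 0.0641 and 1.03 ± 0.0793 (n = 4 each), and in female labelled knockouts 1.29 ± 0.107 and 1.08 ± 0.0574 (n = 4 each). For both female arms the exact permutation test gave 0.0286 (adjusted 0.0629), and groups of 4 cannot give less.

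The LF female controls also had a high ratio, 1.29 ± 0.225 (n = 4, from 1.13 to 1.62), above the HF female controls without overlap (log2 difference -0.31 for HF minus LF, exact permutation p of 0.0286, adjusted 0.0629). Female labelled knockouts did not separate by these diets, at 1.16 ± 0.147 on LF and 1.08 ± 0.0574 on HF (n = 4 each). Their log2 difference was -0.09 for HF minus LF (exact permutation p of 0.343, adjusted 0.539). In the 5 comparisons of labelled knockout with control, the exact permutation p of the ratio ran from 0.286 to 0.959, with log2 differences from -0.15 to 0.07. The exons of Abcg5 and Abcg8 share 82 bases (chromosome 17, 84676302 to 84676383, GENCODE M21), and the libraries were not strand specific. Reads from those bases cannot be assigned to either gene.

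**Figure D3:**
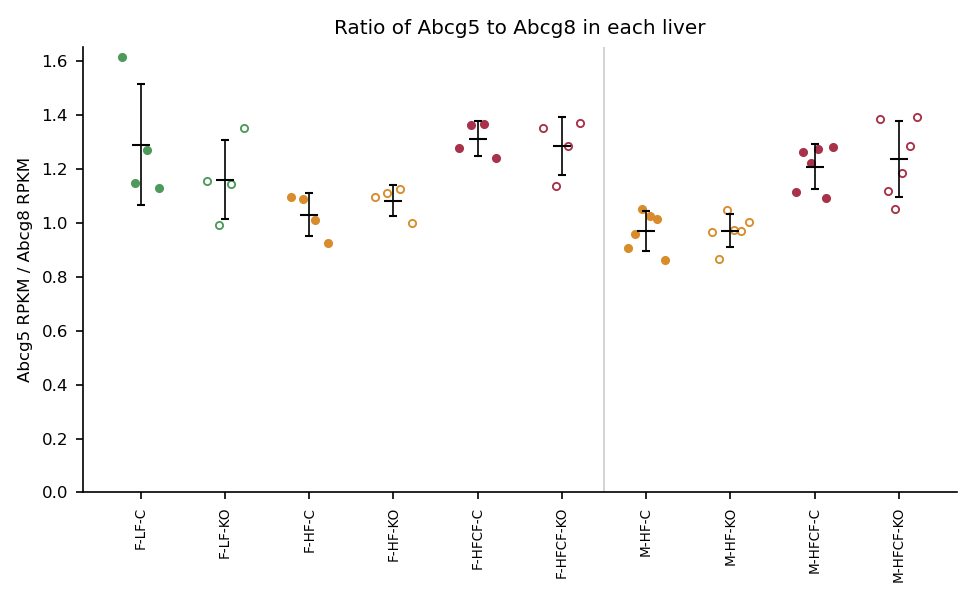
Ratio of Abcg5 RPKM to Abcg8 RPKM (y axis, linear from 0) in each liver, by group (x axis; F female, M male, C control with filled points, KO labelled knockout with open points), with bars for the mean and SD. HF groups average 0.970 to 1.08, and HFCF groups 1.21 to 1.31.

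Cell type markers also differed between these diets. Of 14 macrophage markers, 10, 11, 10 and 6 were called higher on HFCF in male controls, male labelled knockouts, female controls and female labelled knockouts, and 0, 2, 0 and 0 were called lower. Leading genes were the lipid-associated macrophage gene Gpnmb (log2 change 2.69 and 3.79 in the male arms, 5.53 in female labelled knockouts) and the pan-macrophage gene Adgre1 (1.81 in female controls). The summed macrophage markers were 481 to 760 CPM in HF and 727 to 1639 CPM in HFCF male controls, and 544 to 697 and 1140 to 1755 CPM in male labelled knockouts. In female controls they were 427 to 789 on HF and 1461 to 1899 on HFCF, and in female labelled knockouts 507 to 1130 and 1298 to 1742 CPM. No macrophage marker was at 0 in all libraries of a group. Of 8 hepatocyte markers, 4, 7, 5 and 1 were called lower in these arms and 0 higher. The part of these cell markers in the rise of Abcg1, Gramd1b and the others was not tested, and in whole liver, fewer cells of a type and less RNA per cell cannot be told apart.

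Library by library, the same livers stood apart in several of these genes. HFCF male control replicate 1 had the lowest Abcg1 (17.8 CPM) and Mylip (18.7 CPM) of its group. It had the highest Abcg5 (202 CPM) and, unlike the female liver described next, the highest Abca1 (356 CPM). Its macrophage markers summed to 727 CPM, the lowest of its group, and its hepatocyte markers to 60719 CPM, the highest. HFCF female labelled-knockout replicate 1 had the lowest Abcg1 (14.8 CPM), Gramd1b (9.20 CPM) and Abca1 (157 CPM) of its group. It had the highest Nr1h3 (139 CPM) and Abcg5 (192 CPM). Its hepatocyte markers stood at 107959 CPM, the highest of its group, and its macrophage markers at 1298 CPM, the lowest. Without that library 6 of the 10 genes were called between diets in female labelled knockouts, 4 higher and 2 lower. That was the most of 8 fits that left out 1 library, which gave 1 to 6 calls. The share of all genes called in the fit without that library was not computed. The receptors were then lower, Nr1h3 by -0.44 (adjusted p = 0.00803) and Nr1h2 by -0.27 (adjusted p = 0.0207).

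Other genes listed as linked to LXR did not move in 1 direction. Of 22 such genes, 5 were called higher and 4 lower on HFCF in male controls, 8 and 7 in male labelled knockouts, 7 and 4 in female controls and 4 and 4 in female labelled knockouts, with medians of 0.02, 0.04, 0.02 and -0.00. The genes that rose included Lpl, which encodes lipoprotein lipase (log2 change 2.30 in male controls and 2.97 in female controls), and the desaturase genes Scd2 (1.55 and 2.89) and Scd1 (1.85 and 1.97 in the male and female labelled knockouts). Those that fell included Lpin1, a phosphatidate phosphatase gene (-1.22 in male controls), Rgs16 (-0.95 in female controls and -1.17 in female labelled knockouts), and Nr1h4, the bile acid receptor FXR (-0.46 in male and -0.62 in female controls). Several of these genes answer to other factors, and whether each of them answers to LXR was not tested here.

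Genes of sterol transport and esterification were mixed as well. Of 19 tested (21 listed), 3 were called higher and 6 lower on HFCF in male controls, 4 and 6 in male labelled knockouts, 5 and 5 in female controls and 1 and 5 in female labelled knockouts. Soat1, the esterifying enzyme gene that macrophages use, rose by 0.96, 0.95 and 1.36 on the log2 scale in the first 3 arms, in contrast to Soat2 above. Stard4, a sterol carrier under SREBP2 control, fell in all 4 (log2 changes -1.19, -0.96, -0.75 and -0.81). Lcat, whose plasma enzyme esterifies cholesterol on HDL, had log2 changes of -0.82, -0.92 and -0.83 in male labelled knockouts, female controls and female labelled knockouts. Gramd1c, a relative of Gramd1b, fell in female labelled knockouts (-0.63), the opposite direction to Gramd1b (1.49).

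Genes regulated by SREBP2, the sterol-sensing counterpart of LXR, were listed together with regulators of SREBP2, and were mostly lower on HFCF. Of 21, 20 were called lower and 0 higher in male controls, 20 and 1 in male labelled knockouts, 9 and 1 in female controls and 10 and 1 in female labelled knockouts, with medians of -1.37, -1.05, -0.93 and -0.82. Idi1, of the isoprenoid step, had log2 changes of -2.61 in male controls, -1.73 in female controls and -1.52 in female labelled knockouts. Msmo1, a sterol demethylation gene, had -2.07, -1.73, -1.75 and -1.51 in the 4 arms. Of 8 tested genes that make or clear oxysterols, the ligands of LXR (10 listed), 5, 6, 4 and 1 were called lower and 0 higher. Cyp46a1, a cholesterol 24-hydroxylase gene, had a log2 change of -1.37 in male controls, and Cyp39a1, whose enzyme acts on that product, had -0.38, -0.71, -1.12 and -0.94 in the 4 arms.

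**Figure D4:**
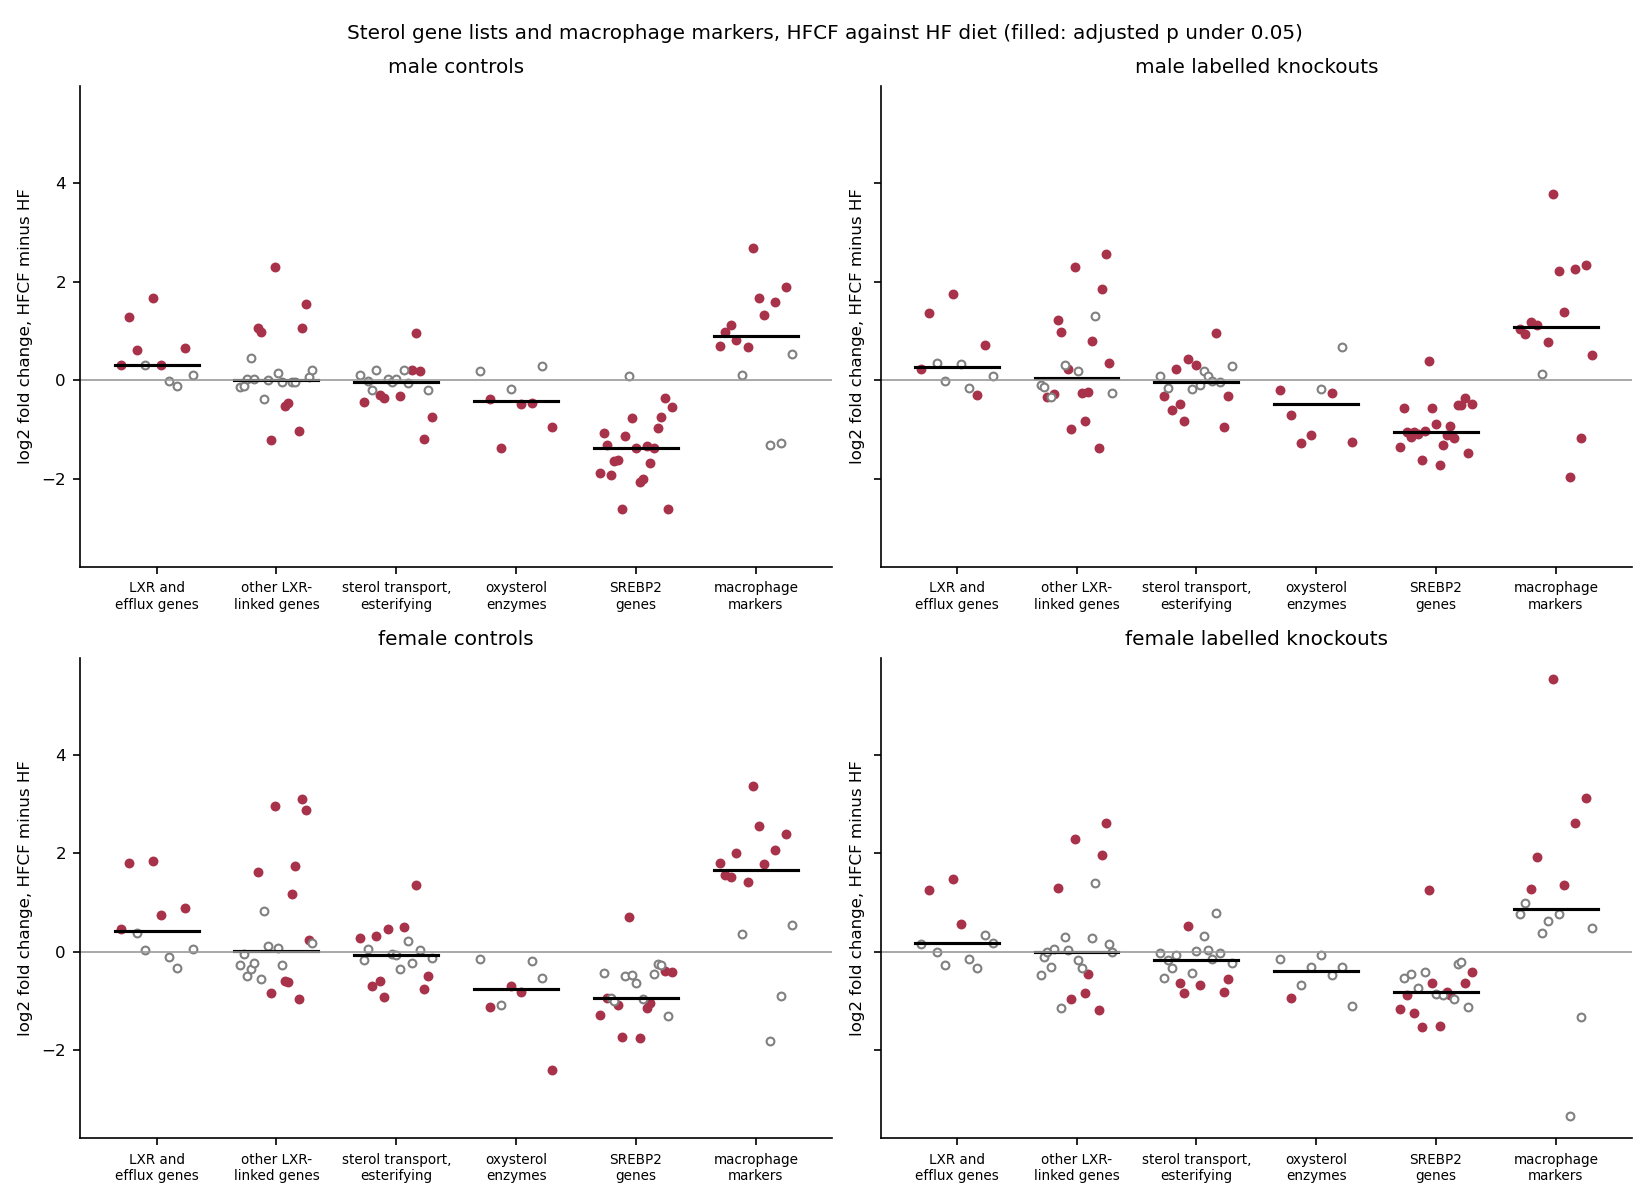
Log2 fold change of HFCF over HF (y axis) for each tested gene of 6 lists (x axis), in male controls, male labelled knockouts, female controls and female labelled knockouts, filled where the adjusted p is under 0.05, with a line at each list's median. The median of the SREBP2 list lies at -1.37, -1.05, -0.93 and -0.82, and that of the LXR and efflux genes at 0.31, 0.28, 0.43 and 0.17.

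The comparison of HF with LF diet was possible in females only, and none of the 10 genes was called in it (edgeR), in controls (0.696% of all genes called) or in labelled knockouts (0.155%). DESeq2 called none either. At an unadjusted p under 0.05, for which the share of all genes was not computed, there were 0 in controls and 4 in labelled knockouts. The 4 were Abcg5 (log2 difference -0.51), Mylip (-0.51), Rnf145 (-0.27) and Soat2 (-0.32), each with a lower mean on HF. Of these, Rnf145 had no overlap, at 36.8, 29.9, 38.5 and 35 CPM on HF and 39.0, 49.9, 39.7 and 42.4 CPM on LF.

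The labelled knockout was compared with control within each diet and sex. In HF males, LXRα was higher and Abcg1 and Rnf145 were lower in the labelled knockouts, and no other comparison of labelled knockout with control gave a call among these genes. These 3 of 10 calls, 1 higher and 2 lower, are near the background share, 18.5% of all genes called (8.57% higher, 9.88% lower). Nr1h3 measured 109, 122 and 135 CPM (lowest, median and highest) in labelled knockouts and 95.8, 101 and 107 CPM in controls, with no overlap (log2 change 0.26, SE 0.06, edgeR adjusted p = 0.00613). Rnf145 measured 23.2, 29.5 and 34.0 CPM against 31.4, 36.8 and 41.8 CPM, an overlapping difference (log2 change -0.33, SE 0.09, adjusted p = 0.0153). Both calls held in each of 12 fits that left out 1 library. Abcg1 measured 6.37, 9.77 and 11.8 CPM against 10.5, 12 and 15.2 CPM (log2 change -0.42, SE 0.13, adjusted p = 0.0374), a call that held in 5 of the 12 fits, those without control replicate 2, 5 or 6 or labelled-knockout replicate 2 or 3, and not in the fit of all male groups (adjusted p = 0.0569). Gramd1b had the same log2 difference, -0.42 (SE 0.15), and an adjusted p of 0.0685, with a call by DESeq2 (adjusted p = 0.0473) and without control replicate 6 (0.0366) or labelled-knockout replicate 4 (0.0384). Mylip was called lower without labelled-knockout replicate 3 (-0.35, adjusted p = 0.0463). Abca1, Abcg5, Abcg8 and Soat2 lay between -0.03 and 0.05.

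Cell markers also moved in the HF male comparison. Of 8 hepatocyte markers 5 were called higher and 0 lower in the labelled knockouts. Of 14 macrophage markers 1 was called higher (Clec4f, log2 change 0.56) and 4 lower, led by Gpnmb (-1.76). Of 8 stellate cell markers 4 were called lower and 0 higher (median log2 difference -0.22), and of 6 endothelial markers 1 was called lower (median -0.25), where 9.88% of all genes were called lower. Summed macrophage markers were 544 to 697 CPM in labelled knockouts and 481 to 760 CPM in controls. Their part in the lower Abcg1 and Rnf145 was not tested. Of the 22 other LXR-linked genes, 4 were called higher and 9 lower, led by Abcc3 (-0.87), Scd2 (-0.80), Pltp (-0.96) and Lpl (-0.86). Of the 8 oxysterol enzyme genes, Sult2a8 (1.37), Cyp7b1 (1.06) and Cyp27a1 (0.25) rose and Cyp46a1 (-0.60) fell.

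In HFCF males none of the 10 genes was called (2.21% of all genes called), by edgeR or DESeq2, and 3 had an unadjusted p under 0.05: Abcg1 (log2 difference -0.33), Rnf145 (-0.24) and Gramd1b (-0.32). The share of all genes with an unadjusted p under 0.05 was not computed in any comparison of labelled knockout with control. HFCF male control replicate 1 lowered the control mean of Abcg1. Without that library the log2 difference of Abcg1 was -0.44 with an adjusted p of 0.00583. In HFCF females none was called by either tool (0.0534% of all genes called at an adjusted p under 0.05). At an unadjusted p under 0.05, a looser threshold with no share of all genes computed, there were 6 of 10. Those were Abca1 (log2 difference -0.41), Abcg1 (-0.50), Abcg5 (-0.51), Rnf145 (-0.39), Gramd1b (-0.44) and, with a higher mean in the labelled knockouts, Soat2 (0.29). Labelled-knockout replicate 1 and control replicate 3 bore on these values. Without the former, the log2 differences were -0.28 for Abca1, -0.34 for Abcg1, -0.76 for Abcg5, -0.31 for Rnf145 and -0.32 for Gramd1b, with adjusted p from 0.190 to 0.6004. Without the latter, that of Abcg5 was -0.33. Rnf145 was without overlap there, at 35.4, 51.0, 43.7 and 46.2 CPM in labelled knockouts against 58.0, 62.1, 56.2 and 58.3 CPM in controls (adjusted p = 0.482). In LF females (0% of all genes called) and HF females (0%) none was called by either tool, with 1 unadjusted p under 0.05, that of Mylip in LF females (log2 difference 0.50).

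**Figure D5:**
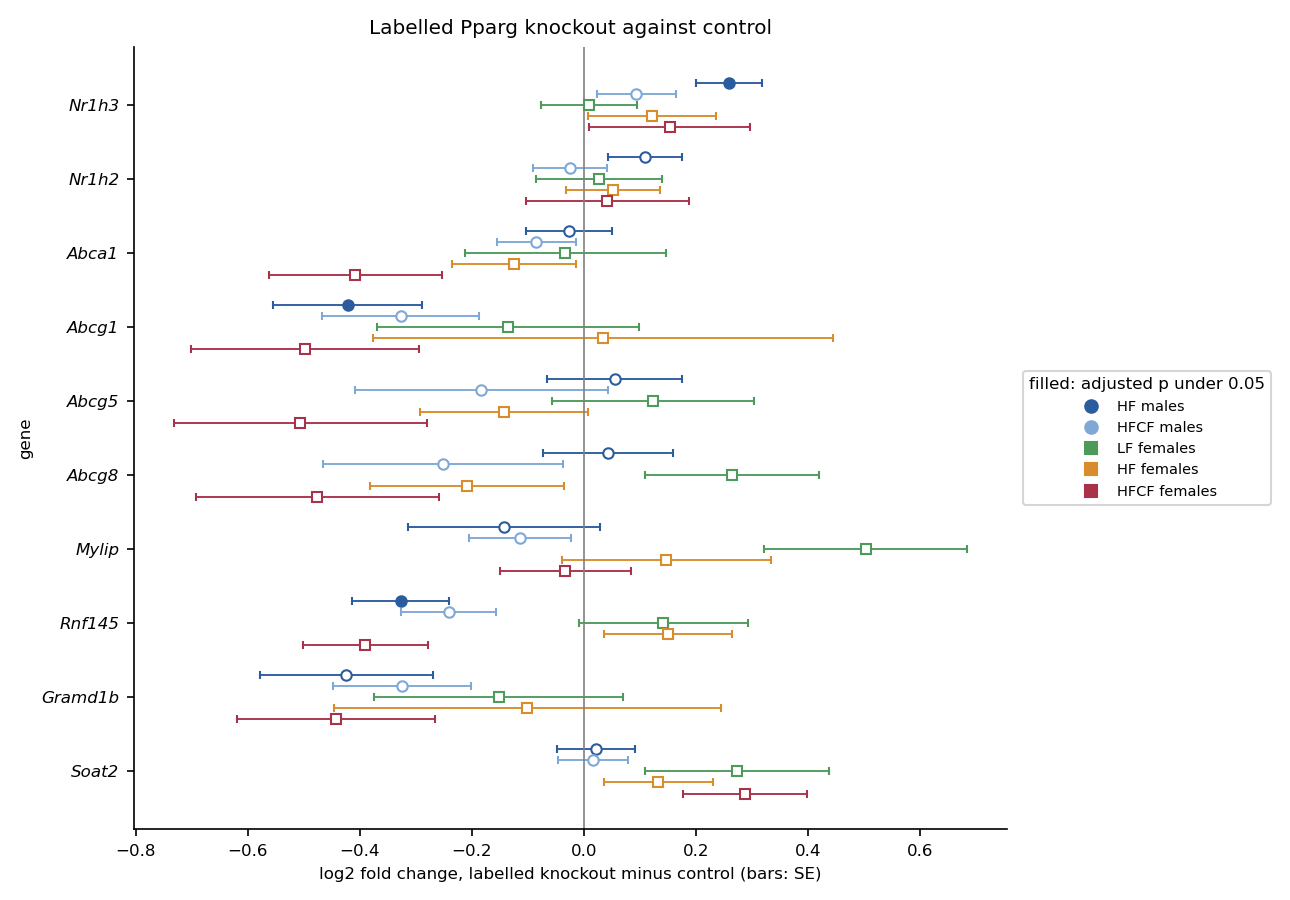
Log2 fold change of labelled knockout over control (x axis, bars SE) for each gene (y axis) in HF males, HFCF males, LF females, HF females and HFCF females, filled where the adjusted p is under 0.05. The 3 filled points are those of Nr1h3 (0.26), Abcg1 (-0.42) and Rnf145 (-0.33) in HF males.

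None of the 10 genes passed a test that its diet difference itself differed between labelled knockouts and controls, in males (1.56% of all genes called) or in females (0%). The same held for the difference of the diet effect between sexes, in controls (0.00646%) and in labelled knockouts (0.013%). Counts at an unadjusted p under 0.05 were 0, 1, 1 and 1, with no share of all genes computed at that threshold, and DESeq2 called none. The smallest of these was that of Rnf145 in females, whose diet difference was lower in labelled knockouts than in controls by -0.54 on the log2 scale (SE 0.16, unadjusted p = 0.00375, edgeR adjusted p = 0.958). Without HF female control replicate 1, the diet effect on Abcg1 was smaller in male than in female controls by -0.88 (adjusted p = 0.0370), against -0.51 (0.394) with it. In HF controls the females had Abcg5 at 123 to 172 CPM and the males at 77.2 to 101 CPM. The level difference between sexes was not tested.

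Across the 10 group means of log2 CPM, Abcg1 and Gramd1b followed each other most closely among these genes (Pearson r = 0.993), and Rnf145 followed both (0.906 and 0.917). Abcg5 and Abcg8 had r = 0.897. The receptor Nr1h3 ran against its target Abca1 (r = -0.90) and against Abcg1 (-0.875). Among 13423 genes, those most like Abcg1 were B4galt6 (0.998), Sestd1 (0.995) and Ppp1r9b (0.994), and those most like Abca1 were Rybp (0.988), Zscan20 (0.983) and Extl3 (0.982). Most like Abcg5 were Grn (0.936), Gm26792 (0.932) and Ddx39b (0.931), and most like Abcg8 were Cln8 (0.955), 2500002B13Rik (0.950) and Ddb2 (0.947). Soat2 was most like the ribosomal gene Rpl3 (0.973), Pkig (0.965) and Rpl38-ps2 (0.963). These values rest on 10 points that share sex and diet, and serve as a description.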

How the data were processed

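Per the labels' protocols, libraries were made from whole-liver total RNA, not strand specific, with inserts of 250 to 300 bp. The submitters' processing notes name STAR 2.6.1, HTSeq 0.6.1, DESeq2 and the builds GRCm38 and mm10, without their roles. The authors deposited 11 tables of read counts per gene, which were joined by gene into 29221 genes in 48 libraries. Of 1341082 repeated values, 0 differed between tables. A gene missing from a table (under 2 summed reads) was set to 0, and 0 columns lacked a sample. The deposited normalised signal, FPKM, log2 fold changes and p-values of the authors served only as checks. CPM and RPKM were computed with TMM factors in edgeR 4.0.16 (R 4.3.3), and RPKM was within 0.990 to 1.02 times the deposited FPKM.

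Each of 11 comparisons was fitted to its 2 groups alone, after filterByExpr, with edgeR's quasi-likelihood test on counts. The 4 tests of differences between effects used their 4 groups. A gene is called at an adjusted p (Benjamini-Hochberg over all genes tested) under 0.05. Each library is a separate mouse. Of each list, up to 4 called genes with the smallest p per comparison were named, besides genes named by count; 1 listed gene is not reported here. Genes most alike were ranked by Pearson r over 10 group means among genes of at least 1 CPM. The Abcg5 to Abcg8 ratio and its test, a permutation test of log2 ratios, were added after the values were seen. Members and lists were chosen with earlier results of these data known. The main fits had no replicate block. Alternatives were DESeq2-type size factors (RLE, computed in edgeR), the Wald test of DESeq2 1.42.0, no filter, all groups in 1 fit, the replicate block, and leaving out each library.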

Additional observations from a re-analysis of the deposited data

Results flagged for a closer look

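In 7 of 100 sets of 1 gene in 1 group, a single liver lay far from the others by Dixon's criterion, where chance flags about 1 in 20. HFCF male control replicate 1 accounted for 3 of them. It had Abcg5 at 202 CPM (next 139), Abcg8 at 251 CPM (next 158) and Mylip at 18.7 CPM (next 25.6). In HF male labelled knockouts, replicate 3 had Mylip at 31.8 CPM (next 19.5). The LXRβ gene Nr1h2 stood at 56.0 CPM in HFCF male labelled-knockout replicate 5 (next 50.3) and at 65.9 CPM in HF female labelled-knockout replicate 4 (next 60.2). Soat2 stood at 69.9 CPM in HF female control replicate 1 (next 79.5). These values were kept in every fit above unless the text says otherwise.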

How the results depend on the processing

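No call among the 10 genes changed direction under any alternative. With the replicate number as a replicate block, the calls between HFCF and HF diet went from 5 to 0 in female controls, where adjusted p ran from 0.0699 to 0.0823, and from 3 to 1 (Gramd1b) in female labelled knockouts. The block uses up degrees of freedom and takes no information from livers whose number has no partner (the HFCF female controls are numbered 1, 2, 3 and 5). Replicate numbers are not given as a shared batch. Same-numbered livers had a correlation of deviations over 0.1 in every pair in 0 of 11 comparisons, a strict rule. In HF against LF female controls, and in labelled knockout against control in HF and LF females, 2 of 4 pairs passed 0.1. The highest were 0.422, 0.416 and 0.344. Between HFCF and HF diet, 0 of 3 pairs passed in female controls (highest 0.0738) and 0 of 4 in female labelled knockouts (highest 0.0324). The block otherwise added only Gramd1b in HF males (labelled knockout, adjusted p = 0.0485). For fits that left out 1 library, the share of all genes called was not computed. Leaving out 1 library gave 1 to 6 calls between diets in female labelled knockouts: 6 without HFCF replicate 1, and 1 without HF replicate 1 or 4 or HFCF replicate 2, 3 or 4. In HFCF males it gave 0 to 1 calls of labelled knockout, and for the sex by diet test in controls 0 to 1, the exceptions named above. Elsewhere it gave 2 to 4 calls for labelled knockout in HF males, and 5 to 7, 4 to 6 and 5 to 6 between diets in male controls, male labelled knockouts and female controls. Mylip in male controls was lost under DESeq2-type size factors (adjusted p = 0.0509), with no filter (0.0669) and with all male groups in 1 fit (0.120). Groups of 4 limit the female results. Gramd1b (46 to 496 reads a library) and Abcg1 (82 to 814) are the least precisely counted.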

Other observations

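Markers of other liver cells, listed as checks, also differed between diets. Of 4 biliary epithelial markers, 4 were called higher on HFCF in each of the 4 arms, with median log2 changes of 1.5, 1.33, 2.0 and 1.92 in male controls, male labelled knockouts, female controls and female labelled knockouts. Of 8 stellate cell markers, 5, 6, 2 and 7 were called higher and 0 lower, and of 6 endothelial markers 1, 2, 5 and 2. Of 5 red blood cell genes, 3 were called higher in HF male labelled knockouts than in controls (median 1.48), and 5 were called lower on HFCF in male labelled knockouts (median -1.46). Of the 14 genes of LXR partners and cofactors, 2 were called higher and 3 lower on HFCF in male controls, 1 and 1 in male labelled knockouts, and 0 and 2 in both female arms. Rxra encodes an RXR partner of LXR. On the log2 scale it fell on HFCF by 0.44 in male labelled knockouts, 0.44 in female controls and 0.61 in female labelled knockouts. It rose by 0.28 in HF male labelled knockouts against controls.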
